A study of Mus musculus with 10 samples.

Results

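Cholesterol synthesis enzymes were read in the cerebral cortex of 10 male mice through 8 genes, *Hmgcs1*, *Idi1*, *Fdps*, *Fdft1*, *Sqle*, *Cyp51*, *Dhcr7* and *Insig1*, taking every probe set that the platform annotation gave to 1 of them. Of the 8 genes, 7 had a probe set named for them, and together they had 17 probe sets of the 22626 tested. *Insig1* had no probe set named for it in the annotation used here and was not analysed. The annotation gave a single gene to probe sets of 12393 genes in all. Of the 17 probe sets, 12 had a mean of at least 5 on the log2 scale over the 10 arrays, and these covered 6 genes. The other 5 were dimmer, among them the single probe set of *Dhcr7*, and small differences in a dim probe set carry little information on the transcript.

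The study compared *p97FE65* null mice with their wild type littermates at 6 months of age, with 5 arrays of each label and 1 mouse per array. *p97FE65* is the full-length form of FE65, gene symbol *Apbb1*, an adaptor protein that binds the intracellular tail of the amyloid precursor protein. The null allele was engineered using R1 ES cells of 129/Sv origin and inherited through the germ line, not made in chosen cells. The paper describes the targeted exon as lost from the transcript at RNA splicing. Both groups came from a line backcrossed to C57Bl/6J, so that sequence of the ES cell strain can remain near the locus. The null mice are described as lacking the full-length form only. The pair of *Apbb1* probe sets reads transcript away from the skipped exon, and their levels cannot show its loss. The brighter, 1423893_x_at, ran from 10.98 to 11.23 (log2) in the labelled wild type mice and from 11.30 to 11.51 in the labelled null mice, without overlap, a difference of 0.26 ± 0.06 (SE). The difference of 1423892_at was 0.11 ± 0.10, with overlap. The direction under the labels was opposite to that of the study's tables for both *Apbb1* probe sets and for *Gprc5b*, an orphan G protein-coupled receptor on the same chromosome as *Apbb1*. Its probe set 1451411_at ran from 7.07 to 7.74 (log2) in the labelled wild type mice and from 4.71 to 6.92 in the labelled null mice, a difference of -1.23 ± 0.36 (SE). As fold sizes without a sign, the differences were 1.079 for 1423892_at, 1.195 for 1423893_x_at and 2.35 for 1451411_at. The study's tables list nearly the same fold sizes for these probe sets, in the opposite direction. By RT-PCR the paper also reports more *Gprc5b* transcript in null brain, in the region which that *Gprc5b* probe set reads. The genotype behind each label was therefore not settled, and whether the labels were exchanged was not tested. Every signed value here is the arrays labelled null minus the arrays labelled wild type.

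Cholesterol in the brain is made locally, since the lipoproteins of the blood do not cross into it, and much of it goes into myelin. The pathway turns acetyl-CoA into mevalonate, mevalonate into isoprenoid units, and these into squalene, which is closed into a ring and trimmed to cholesterol. Its genes are switched on together by SREBP-2, the product of *Srebf2*, which is released from the endoplasmic reticulum when sterols are low. INSIG proteins hold SREBP-2 there when sterols are high. SREBP-2 binds a short element in the promoters of its targets, usually near a site for NF-Y, which reads CCAAT.

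The promoters of *Hmgcs1*, *Idi1* and *Cyp51* are shown as the 250 bases before the start in RefSeq (build GRCm38.p6), 5′ to 3′ on the strand of the gene. These genes were chosen because they varied together between mice in these same data. The windows of *Dhcr7*, which also varied with *Hmgcs1*, are not shown. Whether the motifs have a part in that variation was not tested. *Hmgcs1* lies at chr13:119690101-119690350 on the plus strand, *Idi1* at chr13:8885356-8885605 on the plus strand and *Cyp51* at chr5:4104698-4104947 on the minus strand. Capitals mark CCAAT and the sterol element spelled TCACNNCA, or TCACNCCAC in its longer form, read on both strands.
Hmgcs1: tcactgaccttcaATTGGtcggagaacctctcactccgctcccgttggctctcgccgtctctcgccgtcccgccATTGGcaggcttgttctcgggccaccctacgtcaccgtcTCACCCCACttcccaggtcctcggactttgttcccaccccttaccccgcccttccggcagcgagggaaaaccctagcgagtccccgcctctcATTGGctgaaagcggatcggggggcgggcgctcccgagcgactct
Idi1: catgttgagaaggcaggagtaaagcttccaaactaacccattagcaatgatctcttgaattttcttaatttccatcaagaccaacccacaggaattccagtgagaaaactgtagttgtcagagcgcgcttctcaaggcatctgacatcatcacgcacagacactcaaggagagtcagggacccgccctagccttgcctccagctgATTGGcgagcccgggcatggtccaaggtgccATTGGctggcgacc
Cyp51: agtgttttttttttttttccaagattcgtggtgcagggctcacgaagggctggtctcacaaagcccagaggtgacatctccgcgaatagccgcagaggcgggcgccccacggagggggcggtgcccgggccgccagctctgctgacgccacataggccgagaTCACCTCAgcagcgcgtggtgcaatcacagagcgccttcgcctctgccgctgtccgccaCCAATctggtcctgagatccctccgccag
The *Hmgcs1* window held the longer form TCACNCCAC, whose first 8 letters are also a match to TCACNNCA, from 137 to 129 bases before the start. *Cyp51* held TCACNNCA alone, from 88 to 81 bases before the start, and *Idi1* held neither. CCAAT was found 3 times in the *Hmgcs1* window, 2 times in that of *Idi1* and 1 time in that of *Cyp51*. Over all 32851 promoter windows of this length in the table, 1.05% held TCACNCCAC, 11.4% TCACNNCA and 33.8% CCAAT, so that CCAAT and the shorter element are common. The table held windows for 5 of the 8 genes. Of their 7 windows, which count 3 starts of *Dhcr7*, 1 held TCACNCCAC, 4 TCACNNCA and 5 CCAAT. The shorter spelling was added after the windows had been read, and a match is a run of letters, not a shown binding site.

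No probe set of the pathway passed the test between the labels. Of the 17, 0 had an adjusted p under 0.05 in the limma fit, and over the whole array 0% of probe sets did. At an unadjusted p under 0.05 the count of the 17 was again 0 in each direction, where 2.43% of all probe sets were lower and 1.24% higher on the arrays labelled null. The methods' t-test, named there for statistics in general and not for the arrays, also gave 0 of the 17 at that threshold on the same values. The groups overlapped in all 17 probe sets, while over the whole array 0.623% of probe sets did not overlap. Unadjusted p-values of the limma fit ran from 0.117 to 0.987, and the smallest adjusted p was 0.999. Exact two-sided permutation tests over the arrays gave p-values from 0.167 to 1, where 0.00794 is the smallest that 5 against 5 allows. The fitted difference was negative in 11 probe sets and positive in 6.

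The size of difference that these arrays leave possible varied between probe sets. For 11 of the 12 brighter probe sets the 95% intervals lay between -0.57 and 0.49, that is, within a change of 1.48-fold down and 1.4-fold up. The exception was *Idi1* probe set 1423804_a_at, whose interval ran from -1.21 to 0.53.

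**Figure D1:**
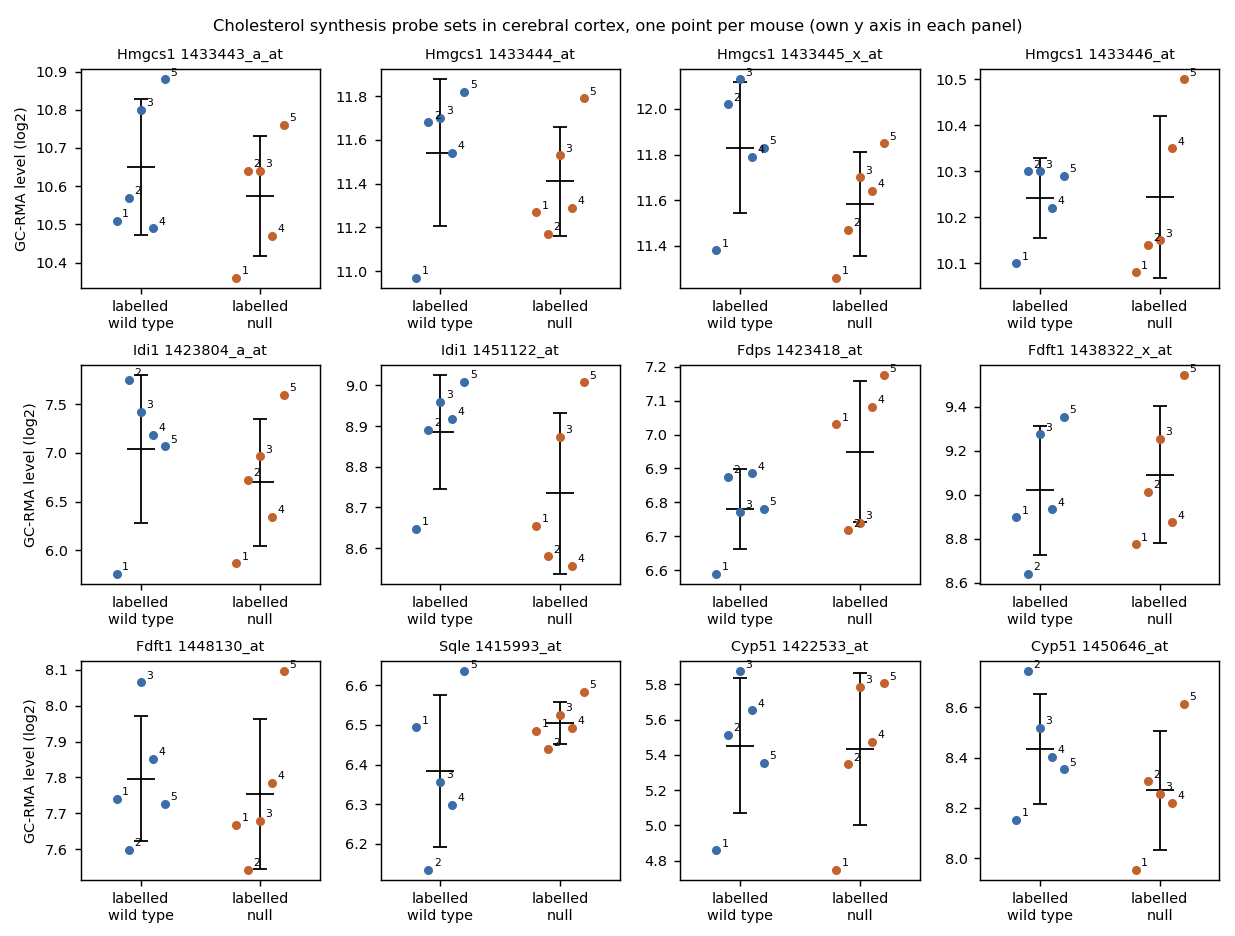
Level (GC-RMA, log2) of the 12 brighter probe sets in each mouse, with the labelled wild type mice in blue, the labelled null mice in orange and the replicate number beside each point. Black bars are the mean ± SD of 5 mice, and each panel has its own vertical axis. The groups overlap in every panel, and *Idi1* 1423804_a_at spreads widest, from 5.76 to 7.75.

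*Hmgcs1* encodes the cytosolic HMG-CoA synthase, which makes HMG-CoA for mevalonate near the start of the pathway, and lies on chromosome 13. Its brightest probe set, 1433445_x_at, read 11.38, 12.02, 12.13, 11.79 and 11.83 (log2) on the labelled wild type arrays of replicates 1 to 5. On the labelled null arrays it read 11.26, 11.47, 11.70, 11.64 and 11.85. In each label replicate 1 was the lowest, and 4 of the 5 labelled null mice lay inside the range of the labelled wild type mice. The difference was -0.24 ± 0.15 (SE), with a 95% interval from -0.57 to 0.08.

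The other 3 *Hmgcs1* probe sets gave smaller differences. Probe set 1433444_at ran from 10.97 to 11.82 in the labelled wild type mice and from 11.17 to 11.79 in the labelled null mice, a difference of -0.13 ± 0.17 (SE). For 1433443_a_at the difference was -0.08 ± 0.10 (SE), and for 1433446_at it was 0.00 ± 0.08 (SE). The 4 probe sets thus differed in how far they pointed down, from none to -0.24. Across the 10 mice each pair of them was positively correlated, with Pearson's r from 0.49 to 0.83.

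*Idi1*, also on chromosome 13, encodes isopentenyl diphosphate isomerase, which interconverts the pair of isoprenoid building blocks. Probe set 1451122_at read 8.65, 8.89, 8.96, 8.92 and 9.01 on the labelled wild type arrays and 8.66, 8.58, 8.87, 8.56 and 9.01 on the labelled null arrays. The labelled null mice fell into 3 low and 2 high values, and the highest reading of each label was nearly the same. The difference was -0.15 ± 0.10 (SE), with a 95% interval from -0.37 to 0.07.

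Probe set 1423804_a_at of *Idi1* moved far more between mice. It read 5.76, 7.75, 7.42, 7.19 and 7.07 on the labelled wild type arrays and 5.87, 6.72, 6.96, 6.34 and 7.60 on the labelled null arrays. Its lowest and highest mouse lay 3.99-fold apart, against 1.37-fold for 1451122_at, and all 11 other brighter probe sets of the pathway had ranges from 1.33-fold to 2.18-fold. Replicate 1 was the lowest of its label in both groups. The difference between labels was -0.34 ± 0.39 (SE), smaller than its own error. The *Idi1* probe sets followed each other across mice (r = 0.79, rho = 0.71, 10 arrays).

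*Fdps*, on chromosome 3, makes farnesyl diphosphate, the branch point from which sterols, dolichol, ubiquinone and the lipid anchors of proteins are drawn. Its brighter probe set, 1423418_at, read 6.59, 6.88, 6.77, 6.89 and 6.78 on the labelled wild type arrays and 7.03, 6.72, 6.74, 7.08 and 7.18 on the labelled null arrays. Of the labelled null mice, 3 lay above every labelled wild type mouse and 2 lay inside their range. The difference of 0.17 ± 0.10 (SE), with a 95% interval from -0.05 to 0.39, was the highest of the 17 and had the smallest p (limma, unadjusted p = 0.117). The dim probe set 1438150_at stayed between 1.38 and 1.55 on all arrays.

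*Fdft1*, squalene synthase, joins 2 farnesyl units into squalene and so commits them to sterols, and it lies on chromosome 14. Its brightest probe set, 1438322_x_at, read 8.90, 8.64, 9.28, 8.93 and 9.36 on the labelled wild type arrays and 8.78, 9.01, 9.25, 8.88 and 9.54 on the labelled null arrays. The ranges of the labels nearly coincided, with replicate 5 the highest in each. The difference was 0.07 ± 0.17 (SE), and that of 1448130_at was -0.04 ± 0.11 (SE). The 2 dim probe sets, 1438918_at and 1438919_x_at, differed by 0.00 ± 0.14 and -0.02 ± 0.07 (SE).

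*Sqle*, on chromosome 15, encodes squalene epoxidase, the first oxygen-dependent step and a control point of the pathway. Its probe set 1415993_at read 6.49, 6.13, 6.36, 6.30 and 6.64 on the labelled wild type arrays and 6.49, 6.44, 6.53, 6.49 and 6.58 on the labelled null arrays. All 5 labelled null mice lay inside the labelled wild type range, which was wider, with an SD of 0.191 against 0.0538. The difference was 0.12 ± 0.08 (SE), with a 95% interval from -0.06 to 0.31, and the difference in spread was not tested.

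*Cyp51*, on chromosome 5, removes a methyl group from lanosterol, the first sterol of the pathway. Probe set 1450646_at read 8.15, 8.74, 8.52, 8.40 and 8.35 on the labelled wild type arrays and 7.95, 8.31, 8.26, 8.22 and 8.61 on the labelled null arrays. Most labelled null mice sat low, but replicate 5 was higher than all labelled wild type mice other than replicate 2. The difference was -0.16 ± 0.13 (SE), with a 95% interval from -0.45 to 0.12. Probe set 1422533_at ran from 4.86 to 5.88 in the labelled wild type mice and from 4.75 to 5.81 in the labelled null mice, a difference of -0.02 ± 0.23 (SE). The dim probe set 1422534_at differed by 0.00 ± 0.04 (SE).

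*Dhcr7*, on chromosome 7, makes cholesterol from 7-dehydrocholesterol in the last step of one arm of the pathway. Its only probe set, 1448619_at, was dim. It read 3.54, 3.87, 4.49, 3.82 and 3.84 on the labelled wild type arrays and 3.62, 3.83, 3.76, 3.86 and 3.85 on the labelled null arrays. A single mouse, labelled wild type replicate 3, stood above the others, and the difference was -0.12 ± 0.15 (SE). Without that mouse it was 0.02.

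**Figure D2:**
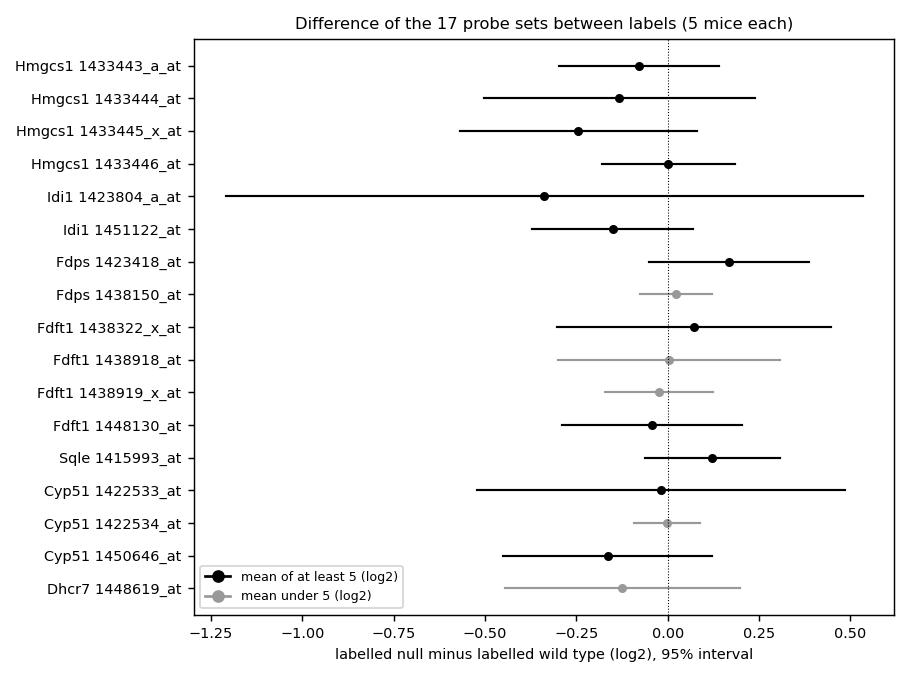
Difference of each of the 17 probe sets on the log2 scale, labelled null minus labelled wild type (points), with the 95% interval of the limma fit (lines). Grey marks the 5 probe sets with a mean under 5, and every interval includes 0.

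With 1 probe set per gene, the brightest, the median difference of the 7 genes was -0.12, with 4 genes negative and 3 positive. Over all 12393 genes the median was -0.002, and over the 4921 genes with a mean of at least 5 it was -0.04. The 6 cholesterol genes with a mean of at least 5 had a median of -0.04 as well, so the lower value of the 7 comes with the dim probe set of *Dhcr7*. The median of the 7 is the value of *Dhcr7*, so it also rests on labelled wild type replicate 3 and was 0.02 without it. The genes at -0.15 or lower were *Hmgcs1*, *Idi1* and *Cyp51*, and those above 0 were *Fdps*, *Fdft1* and *Sqle*.

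Of 15 other synthesis genes, 12 were measured, and 0 passed the adjusted threshold or an unadjusted p of 0.05, with a median difference of -0.03. The 3 with the smallest p were *Tm7sf2*, a sterol reductase, at 0.15 ± 0.07 (SE), *Lss*, which closes the ring to lanosterol, at -0.16 ± 0.09, and *Ebp*, a sterol isomerase, at -0.07 ± 0.08.

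Among 9 genes that sense sterols or switch the pathway, 7 were measured, 0 passed either threshold and the median was -0.04. *Srebf2* itself was at 7.46 ± 0.16 (SD) in the labelled wild type mice and 7.31 ± 0.20 in the labelled null mice, a difference of -0.15 ± 0.10 (SE). *Scap*, which escorts SREBP proteins, differed by -0.08 ± 0.07 and *Srebf1*, the relative that drives fatty acid genes, by 0.08 ± 0.10 (SE). The arrays read its RNA and not the release of SREBP-2.

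Of 22 genes of cholesterol uptake, transport and turnover, 19 were measured, with a median of -0.03. In the brightest probe set of each gene, 1 was higher at an unadjusted p under 0.05 and 0 were lower. Counted in the same way, 1.33% of all 12393 genes were higher and 2.61% lower, and of the 4921 brighter genes 1.32% were higher and 5.2% lower. The 1 gene was *Clu*, clusterin, a lipoprotein of astrocytes, at 11.14 ± 0.05 (SD) in the labelled wild type mice and 11.27 ± 0.11 in the labelled null mice (limma, unadjusted p = 0.0391, adjusted p = 0.999). *Clu* had 4 probe sets, and no other of them reached an unadjusted p under 0.05 in that fit. *Abca1*, which loads cholesterol onto lipoproteins, was higher by 0.22 ± 0.10 (SE) in the dimmer probe set 1421839_at (limma, unadjusted p = 0.0481), while its brightest probe set differed by -0.04 ± 0.12.

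All 11 genes of fatty acid synthesis were measured, 0 passed either threshold in the brightest probe set, and the median was -0.03. *Acly*, which makes cytosolic acetyl-CoA for both pathways, differed by -0.13 ± 0.06 (SE), and *Fads1*, a desaturase, by -0.12 ± 0.11. The elongase *Elovl5* differed by -0.13 ± 0.07 in its brightest probe set and by -0.39 ± 0.14 in 1415840_at (limma, unadjusted p = 0.0170). Of 12 genes on the isoprenoid branches 8 were measured, and *Nus1*, a subunit of the enzyme that starts dolichol, differed by -0.20 ± 0.08 (limma, unadjusted p = 0.0321) while the median of the list was -0.04. *Nus1* had 3 probe sets, and no other of them reached an unadjusted p under 0.05 in that fit. Each of these unadjusted calls had an adjusted p of 0.999.

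Myelin-forming cells use much of the cholesterol made in brain, so markers of cell types were read beside the pathway. Of 12 oligodendrocyte genes 11 were measured, 3 were lower on the arrays labelled null at an unadjusted p under 0.05 and 0 were higher, with a median of -0.17, where 2.61% of all genes and 5.2% of the brighter genes were lower. *Mbp*, a major myelin protein, differed by -0.23 ± 0.07 (SE) in its brightest probe set and by 0.20 ± 0.08, the other way, in the dim probe set 1425263_a_at (limma, unadjusted p = 0.0253). *Olig2*, a lineage factor that was dim here, differed by -0.18 ± 0.08 and *Cldn11*, a myelin junction protein, by -0.52 ± 0.22. The summed level of the 11 ran from 14.48 to 14.89 in the labelled wild type mice and from 14.39 to 14.58 in the labelled null mice. As a sum of linear values it rests mostly on *Mbp*, whose labelled wild type mean was 14.06, with *Cnp* next at 11.54. Across the 10 mice the summed level had r = 0.47 and rho = 0.37 with the mean of the 7 cholesterol genes, and its part in their values was not tested. In bulk tissue, fewer cells of a type and less RNA per cell cannot be told apart.

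Of 8 neuronal genes 7 were measured and 3 were lower, against the same 2.61% and 5.2%, with a median of -0.11. *Rbfox3*, a nuclear marker of neurons that was dim here, differed by -0.37 ± 0.12 (SE) and *Nefl*, a neurofilament, by -0.20 ± 0.07. Their summed level ran from 14.63 to 14.85 in the labelled wild type mice and from 14.51 to 14.76 in the labelled null mice. Of 7 genes of astrocytes, the cells that make much of the cholesterol of adult brain, 1 was lower (*S100b*) at -0.25 ± 0.10, *Gfap* differed by 0.11 ± 0.08, and the summed level overlapped from 12.44 to 12.84 and from 12.44 to 12.91. Of the microglial, endothelial, choroid plexus and striatal genes measured, 0 passed an unadjusted p of 0.05. The lowest median among these 4 lists was -0.02 and the highest 0.04.

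**Figure D3:**
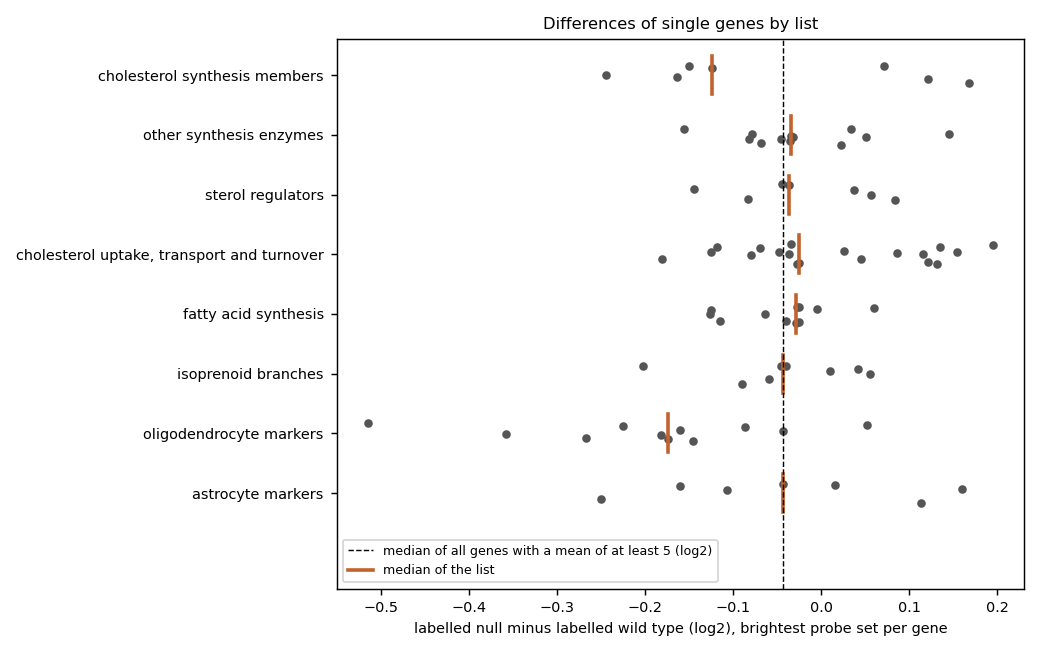
Difference of single genes on the log2 scale, labelled null minus labelled wild type, in the cholesterol synthesis genes, 5 lists of related pathway genes and 2 lists of cell type markers. Each point is the brightest probe set of a gene, orange bars are list medians and the dashed line is the median of all genes with a mean of at least 5, at -0.04. The oligodendrocyte list has the lowest median, at -0.17, and the cholesterol synthesis genes are at -0.12 with the dim *Dhcr7* and at -0.04 without it.

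Between mice, whatever their label, part of the pathway moved together. The standardised level of each gene's brightest probe set was compared across the 10 arrays, which share a normalization, so these correlations are descriptions. *Hmgcs1* rose and fell with *Cyp51* (r = 0.87, rho = 0.92), with *Dhcr7* (r = 0.78, rho = 0.81) and with *Idi1* (r = 0.76, rho = 0.73), and *Idi1* had r = 0.66 with *Cyp51*. These 4 genes were low in labelled wild type replicate 1 and labelled null replicate 1 and mostly high in labelled wild type replicate 3 and labelled null replicate 5.

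*Fdft1* had r = 0.63 and rho = 0.59 with *Sqle*, and r = 0.60 and rho = 0.64 with *Idi1*, so it followed both about equally, and it had r = 0.36 with *Hmgcs1*. *Fdft1* and *Sqle* were both lowest in labelled wild type replicate 2, the mouse in which *Cyp51* was highest. *Sqle* had r = -0.48 and rho = -0.30 with *Cyp51*, but r = 0.06 without the 2 arrays farthest from the median *Sqle* level, so the negative value rests on those arrays. With *Hmgcs1* it had r = -0.38 and rho = -0.18. *Fdps* had r from 0.02 to 0.13 with each of the others. With the mean of each label subtracted, its r was 0.40 with *Hmgcs1*, 0.39 with *Cyp51* and 0.38 with *Idi1*. It stayed low with the rest, at 0.17 with *Dhcr7*, 0.02 with *Fdft1* and -0.15 with *Sqle*.

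Over the 21 pairs of the 7 genes the median r was 0.25, with 17 pairs above 0, against a median of 0.12 and 60.0% above 0 over all pairs of the 4921 brighter genes. With the mean of each label subtracted the median of the 21 pairs was 0.39, against 0.12 over all pairs.

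**Figure D4:**
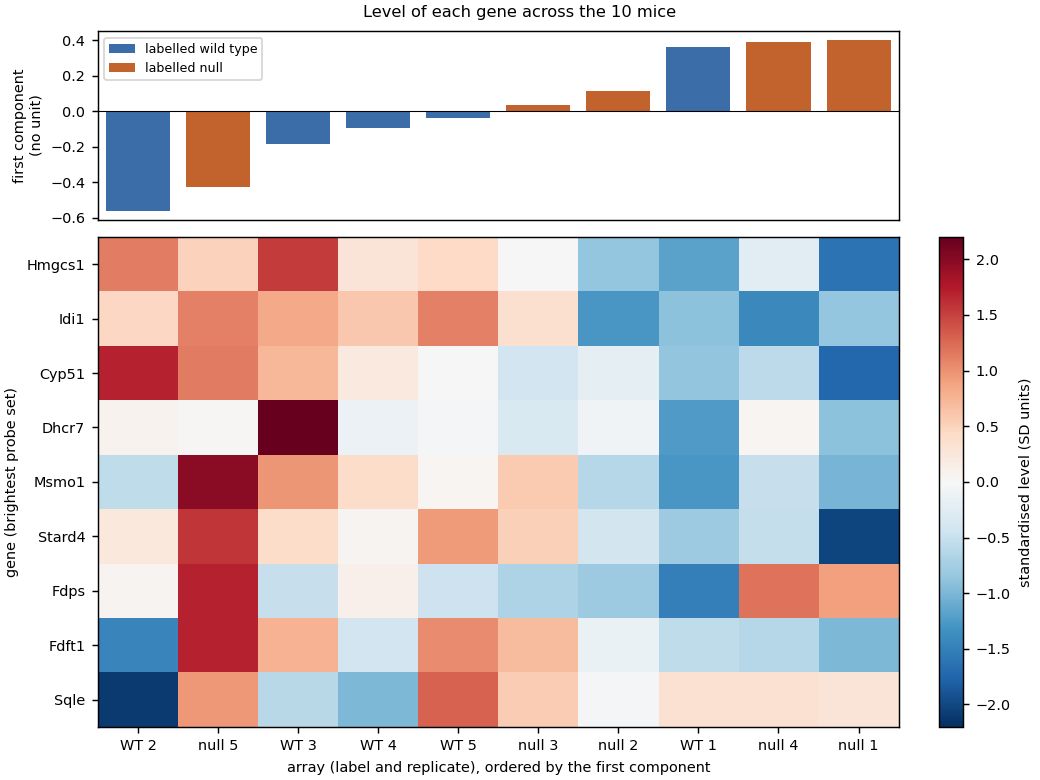
Upper panel, position of each array on the first principal component of the 4921 brighter genes (no unit), with labelled wild type in blue and labelled null in orange. Lower panel, standardised level (SD units) of the 7 measured genes, *Msmo1* and *Stard4* in each mouse, with the arrays in the order of that component. *Hmgcs1*, *Idi1* and *Cyp51* run from high on the left to low on the right, while *Fdps* and *Sqle* do not.

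The joint movement ran along an axis that many other genes shared. The first principal component, the direction in which the 4921 brighter genes varied most between arrays, held 43.6% of their variance and had r = -0.71 with the mean of the 7 genes. *Cyp51* had r = -0.95 with it, larger in size than 98.6% of the brighter genes. *Hmgcs1* had -0.81 (larger than 84.4%) and *Idi1* -0.78 (larger than 79.9%). *Dhcr7* had -0.44 (larger than 41.5%), *Fdft1* -0.29 and *Fdps* -0.17, while *Sqle* went the other way, at 0.44. With that component taken out, an alternative chosen after the data had been seen, the median r of the 21 pairs was 0.15 against 0.04 over all pairs. Of the 21 pairs, 12 were then above 0, where 53.3% of all pairs were. After this step *Fdft1* had the highest likeness to the mean of the others among the 7 (r = 0.62), and *Cyp51* had r = 0.02, where it had 0.54 before.

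Measures of RNA quality on the arrays had low r with the mean of the 7 genes. The difference between the 3′ and 5′ control probe sets of *Gapdh* had r = 0.11 and rho = 0.13 with that mean. That of *Actb* had r = 0.10 and rho = 0.28. The part of RNA quality in these values was not tested beyond this. The median level of each array had r = 0.24 with the mean of the 7 genes, and r = 0.60 without the 2 farthest arrays. Its part was not tested.

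Genes with the profile most like the mean of the 7 were sought among the 4921, apart from the lists. The 8 nearest were *Hus1* (r = 0.94), a DNA damage checkpoint protein, *Lamp5* (r = 0.92), *Aldh9a1* (r = 0.92), *Sdf2* (r = 0.92), *Nrg3* (r = 0.92), a ligand of ErbB4, *Tmem19* (r = 0.90), *Tkt* (r = 0.90), transketolase, and *Selenos* (r = 0.90). Their r with the first component ran from -0.82 to -0.63.

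On the lists, *Msmo1*, a methylsterol oxidase that acts at a later step than *Cyp51*, had r = 0.91 and rho = 0.92 with that mean and rank 6 of 4921. The other 6 brighter synthesis genes of the list ranked from 261 to 3863, with *Lbr* at r = 0.77, *Sc5d* at 0.53, *Nsdhl* at 0.35, *Ebp* at 0.31, *Hsd17b7* at 0.14 and *Erg28* at -0.14. *Stard4*, a carrier that moves cholesterol between membranes, had r = 0.87 and rank 34. *Msmo1* and *Stard4* were picked out after their values had been seen. *Srebf2* had r = -0.08. The fatty acid desaturases went both ways, with *Scd1* at r = -0.65, *Fads1* at -0.25, *Fads2* at 0.20 and *Scd2* at 0.69. Differences between the labels were 0.03 ± 0.12 (SE) for *Msmo1* and -0.07 ± 0.12 for *Stard4*.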

How the data were processed

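Cerebral cortex RNA of 10 mice, 5 of each label, had been hybridised to Affymetrix MOE430A 2.0 arrays, 1 mouse per array. The authors deposited log2 values from GC-RMA, a method that corrects background with the GC content of probes, scales the arrays to each other and combines the probes of a probe set (version: not given in the sources used here). Levels of different probe sets are not comparable. With 5 arrays of each label the precision is low, and nothing shows which arrays are littermates, so the fit has no pairing.

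The 64 control probe sets were left out of the tests. Of the 22626 others, the platform annotation, with symbols updated through GRCm38.p6, gave 1 gene to 20380, several to 691 and none to 1555. The labels were compared with limma 3.58.1 in R 4.3.3 (lmFit, eBayes) over all 22626, as labelled null minus labelled wild type, with Benjamini-Hochberg adjustment and a threshold of 0.05. Tested on simulated data for this comparison over 22626 probe sets, it recovered 43% of 100 changes of 1.4-fold and 93% of 100 of 2-fold, with 10 false calls. In the simulation probe sets varied independently with normal noise, and only those with a mean of at least 5 were changed. The real arrays shared a first component with 43.6% of the variance of the brighter genes, so these rates need not hold for them. Single probe sets were tested with exact two-sided permutation tests. A gene is represented by its brightest probe set, and a list by its counts and median, without a set test. Summed levels are the log2 of summed linear values.

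The genes, lists and tests were chosen with earlier results of these data known. Named were all members, list genes with an unadjusted p under 0.05 or else the 3 with the smallest p, the 2 with the smallest p among oligodendrocyte, astrocyte and neuron markers, the 8 genes most like the member mean, and *Apbb1* and *Gprc5b*. *Cldn11*, *Msmo1* and the other synthesis genes ranked with it, *Stard4*, *Scd1*, *Scd2* and *Fads2* were named after their values were seen. So were the second probe sets of *Abca1*, *Elovl5* and *Mbp*. Of the markers of microglia, endothelium, choroid plexus and striatum, the 2 with the smallest p are named in the closing section. Alternatives were a replicate block, quantile normalization, median centring, a mean of at least 5, array weights, a floor at 4, a robust prior that follows intensity, the methods' t-test, the mean over probe sets of a gene and leaving out each array. Promoter sequences are from RefSeq, with no window for *Fdps*, *Fdft1* and *Sqle* used here. Every value column was mapped to a sample.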

Additional observations from a re-analysis of the deposited data

Results flagged for a closer look

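Of the 34 groups of 5 arrays tested, 17 probe sets in each label, 3 held 1 array far from the other 4 by Dixon's criterion, where chance gives about 5% of groups. All 3 were dim probe sets in which labelled wild type replicate 2 was the highest of its label. *Fdps* 1438150_at read 1.52 there against 1.41 in the next array, *Fdft1* 1438918_at 3.37 against 2.76, and *Fdft1* 1438919_x_at 3.07 against 2.85. The brighter *Fdft1* probe set 1438322_x_at was lowest in that same mouse, at 8.64.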

How the results depend on the processing

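No probe set of the array had an adjusted p under 0.05 under any alternative, and at an unadjusted p the counts moved. The 830 probe sets of the array (3.67% of 22626) became 354 with a mean of at least 5 (4.52% of the 7827 then tested), 445 with a floor at 4 and 1449 with array weights, from 595 to 1655 on leaving out 1 array, the latter without labelled null replicate 5. The count of the 17 was 0, and 1 under the replicate block (*Hmgcs1* 1433445_x_at, limma, unadjusted p = 0.0317, adjusted p = 0.974) and under quantile normalization (*Fdps* 1423418_at, 0.22, limma, unadjusted p = 0.0255), and from 0 to 2 on leaving out 1 array. The 2 were *Hmgcs1* 1433444_at and 1433445_x_at without labelled wild type replicate 1, and 1 was reached without labelled wild type replicate 5 (*Sqle*), without labelled null replicate 5 (*Idi1* 1451122_at), and without labelled null replicate 2 or 3 (*Fdps* 1423418_at). Over all 22626 the count was 1078 under the replicate block, 944 under quantile normalization, 916 with median centring and 778 with the robust prior. It was 1199 without labelled wild type replicate 1 and 852 without labelled wild type replicate 5. Without labelled null replicate 2 it was 680, and without labelled null replicate 3 it was 743. The count of related pathway genes, 2, became 4 under the replicate block, 5 with array weights and 1 with median centring, a mean of at least 5, a floor at 4 or a robust prior with an intensity trend, and ran from 0 to 5 on leaving out 1 array.

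The median of the 7 genes, -0.12, was -0.039 with a mean of at least 5, which drops *Dhcr7*, -0.062 with the mean over probe sets and -0.087 under quantile normalization. It ran from -0.21 to 0.021 on leaving out 1 array, above 0 only without labelled wild type replicate 3. The median of the transport list became 0.017 under quantile normalization and 0.026 with the mean over probe sets. It ran from -0.029 to 0.035 on leaving out 1 array. Under quantile normalization the medians of all the related pathway lists lay above 0. They were 0.018 for fatty acid synthesis, 0.027 for the other synthesis enzymes, 0.021 for the sterol regulators and 0.012 for the isoprenoid branches. The median of all genes in that setting is not given here, so a shift shared by the whole array cannot be told apart. Signs turned in differences near 0. Under quantile normalization *Cyp51* 1422533_at became 0.023, *Fdft1* 1438918_at -0.0036 and *Fdft1* 1448130_at 0.026. With array weights *Cyp51* 1422534_at became 0.0046, *Fdft1* 1438322_x_at -0.015 and *Hmgcs1* 1433446_at -0.037. On leaving out 1 array *Cyp51* 1422533_at ran from -0.17 to 0.15, *Cyp51* 1422534_at from -0.024 to 0.0081, *Dhcr7* from -0.22 to 0.021, *Fdft1* 1438322_x_at from -0.041 to 0.16, *Fdft1* 1438918_at from -0.061 to 0.14, *Fdft1* 1438919_x_at from -0.058 to 0.028, *Fdft1* 1448130_at from -0.13 to 0.025, *Fdps* 1438150_at from -0.0019 to 0.048 and *Hmgcs1* 1433446_at from -0.062 to 0.042. The cause of these moves was not tested.

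The block is by replicate number. Arrays of the same number deviated together with r of 0.51, 0.02, 0.14, 0.16 and 0.08 for numbers 1 to 5, and 3 of the 10 arrays correlated best with their own number, and no label ties a number to a litter, so the numbers were not taken as pairs. All 5 r are above 0, though 2 are under 0.1, and the design names littermate pairs, so a pairing is possible. Under the block the SE was smaller in 11 of the 12 brighter probe sets of the pathway, against 71.85% of all brighter probe sets, with a median ratio of SE without to with the block of 1.44 against 1.11. The number of arrays and, for 5 of the 17 probe sets, low signal limit what can be seen.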

Other observations

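*Ttr*, the marker of choroid plexus, ran from 4.99 to 7.84 on the labelled wild type arrays and from 5.08 to 6.76 on the labelled null arrays, and *Folr1*, the other with the smallest p, differed by 0.07 ± 0.05 (SE). *Ppp1r1b*, a marker of striatal neurons, differed by -0.31 ± 0.15 and *Rgs9* by -0.02 ± 0.11. Among microglial genes *Cx3cr1* differed by -0.20 ± 0.14 and *Itgam* by 0.05 ± 0.05. Among endothelial genes *Kdr* differed by -0.03 ± 0.04 and *Flt1* by 0.08 ± 0.11. All differences are labelled null minus labelled wild type on the log2 scale.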
